A study of Bos taurus with 6 samples.

Results

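The sites described here are 603 strong summits of trimethylation at lysine 27 of histone H3 (H3K27me3) in bovine embryonic stem cells that stand alone or in small groups and recur in both cell lines. They were selected on their own measured values. The summits of both lines on chromosomes 1 to 29 were pooled and chained where neighbours lay at most 5 kb apart, and chains with 5 or more summits in either line were dropped as large. Of the rest, a summit of line A was kept where its peak score was 50 or more and the nearest summit of line B lay within 1 kb and also scored 50 or more. The nearest summit of line B is called the partner below. The members are 603 of the 17664 H3K27me3 summits of line A on these chromosomes (3.41%). The 4 deposited lists hold 88657 summits in all.

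H3K27me3 is laid down by Polycomb repressive complex 2 and is typical of silent developmental genes, where it usually spreads over domains. In pluripotent cells many promoters of such genes also carry trimethylation at lysine 4 (H3K4me3), a mark of active and poised promoters, and are then called bivalent. A Polycomb site in a stem cell is therefore often found beside an H3K4me3 summit.

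Both marks had been profiled by ChIP-seq in line A and line B, independent lines of embryonic stem cells derived from blastocysts, at passage 12. The cells of all groups were grown on mouse feeder cells in a custom basal medium with human FGF2 and IWR1, an inhibitor of WNT signalling, and were parted from the feeders with magnetic beads before chromatin was made. Each mark had 1 library in each line, so n = 2 per mark, and neither line carries a treatment or an edited allele. Inputs, 2 libraries, were not analysed here. The deposited summits are 1 base long and carry the authors' peak score, taken here for −log10 p or −log10 q. No read counts are given, so depth is unknown, and equal scores in different libraries need not mean equal signal. Cell identity could not be checked against marker genes, since the lists hold no gene names and no annotation of the build of the files (UMD3.1) was used.

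Most high-scoring summits lay in large chains. Of the 4283 autosomal summits of line A with a score of 50 or more, 3551 lay in 1 of the 668 large chains and 732 (17.1%) outside them. Of these 732, 603 had a partner that passed, 91 had a partner scoring under 50 and 38 had no summit of line B within 1 kb. Among all line A summits with a line B summit within 1 kb, large chains held 3074 scoring 50 or more in both lines and 3381 others. Outside large chains these numbers were 603 and 4595. How the 6011 summits without one divide is not given here. The 13083 autosomal summits of line B hold 590 distinct partners of the 603 members, because 26 members share a partner with another member.

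The threshold of 50 had no gap around it. The members just inside it were on chromosome 29 at 17789736, with a score of 50.01 in line A and 65.4 in its partner, on chromosome 4 at 11507219, with 85.8 and 50.7, and on chromosome 11 at 14312303, with 50.8 and 75.7. Just outside it lay summits on chromosome 24 at 35626220 (49.99 and 61.3), chromosome 20 at 2988914 (49.9 and 399) and chromosome 14 at 1362848 (70.7 and 49.7). The members farthest from their partners lay 979, 940 and 930 bases away, and the nearest summits beyond the limit 1026, 1031 and 1031 bases away.

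The median member scored far above the threshold, but many lay near it. By the lower score of the lines, 84 members scored 50 to 75 and 79 scored 75 to 100. The members' score in line A ran from 50.01 to 5792, with a median of 210 and quartiles of 116 and 368. In line B it ran from 50.7 to 2986, with a median of 197 and quartiles of 112 and 332. The medians over all autosomal H3K27me3 summits of lines A and B were 11.4 and 13.2. In both lines 80 members scored 500 or more, and 24 scored 1000 or more. The rule fixes the lower bound of these values, so they describe the members and test nothing.

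Among the members the scores of the lines mostly rose together, with some wide exceptions. The rule asked for a high score in both lines, so summits with a weak or missing partner had been dropped. The values below thus describe the members and do not test whether the lines agree. Across the 603 members the Spearman correlation of the scores was 0.83, a description of sites that share libraries and a lower bound. The score of line B was between 0.5 and 2 times that of line A at 558 members (92.5%), with a median ratio of 0.97 and quartiles of 0.81 and 1.15. It was under 0.5 at 29 members and above 2 at 16. Some of the 16 share a partner with a member that scored higher in line A. A ratio of scores is not a fold of signal, because both depths are unknown.

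**Figure D1:**
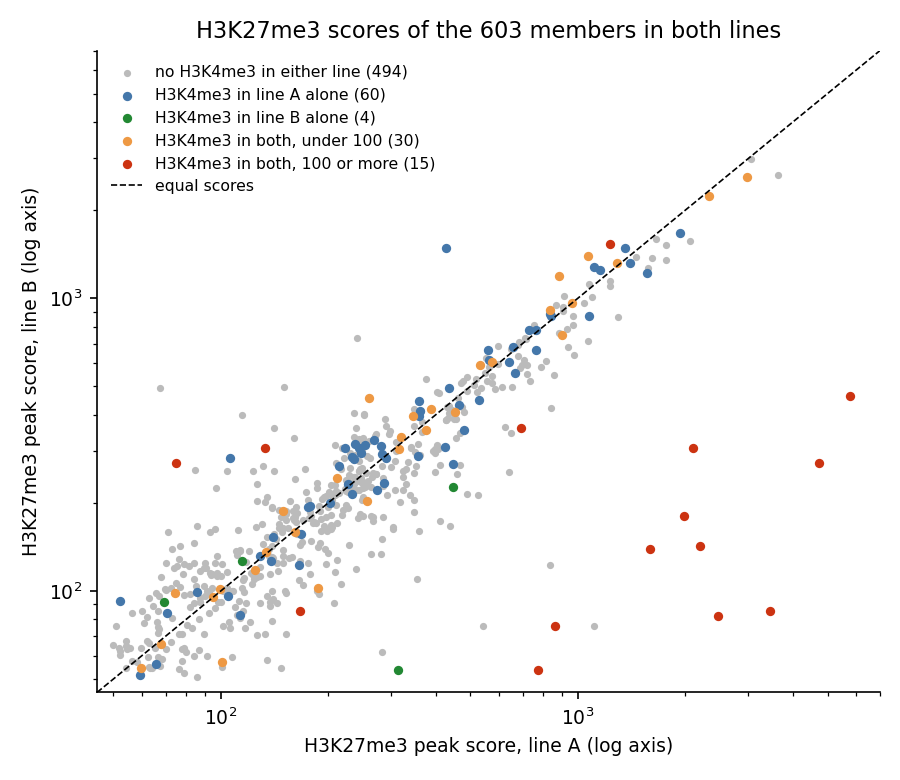
Each point is 1 of the 603 members, with the H3K27me3 peak score of line A on the horizontal and of line B on the vertical axis (both log), coloured by the H3K4me3 summits within 1 kb. The 494 members without H3K4me3 mostly follow the dashed line of equal scores, while 10 of the 15 members beside strong H3K4me3 in both lines score under 0.5 times as high in line B as in line A.

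The 10 members with the highest score in the weaker line were, in this order, on chromosome 3 at 693158, chromosome 14 at 577152, chromosome 29 at 19574791, chromosome 7 at 72103737, chromosome 6 at 56204692, chromosome 5 at 71077743, chromosome 14 at 40544756, chromosome 8 at 44635816, chromosome 22 at 44628219 and chromosome 13 at 48077191. All positions are UMD3.1, counted from 1, and are those of line A. The strongest scored 3061 and 2986 in lines A and B, with both summits at the same base. The next, on chromosome 14, scored 3621 and 2638, with summits 8 bases apart. The weakest of the 10, on chromosome 13, scored 1617 and 1376, again at the same base. In all 10 the summits of the lines lay at most 10 bases apart, against 59.5% of all members. At 7 of the 10 neither line had an H3K4me3 summit within 1 kb, against 81.9% of all members.

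The summits of the lines coincided almost to the base. The median distance from a member to its partner was 7 bases, with quartiles of 1 and 23 bases, although the rule allowed 1000. At 99 members (16.4%, 95% Wilson interval 13.7% to 19.6%) both libraries had their summit at the same base. At 475 members (78.8%, interval 75.3% to 81.8%) the partner lay within 30 bases, against 39.3% of all autosomal summits of line A with a partner. Only 23 members had a partner more than 500 bases away. These intervals cover counting error only, and neighbouring members are not independent.

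Shared summits with lower scores were placed more loosely. The 4595 summits outside large chains with a partner within 1 kb that failed the score criterion in 1 or both lines lay a median of 161 bases from it, and 16.1% lay within 30 bases. The 3074 high-scoring summits in large chains, chosen by the same score and distance limits, lay a median of 8 bases away, with 79.2% within 30 bases. The score entered the rule, so these distances are a description.

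**Figure D2:**
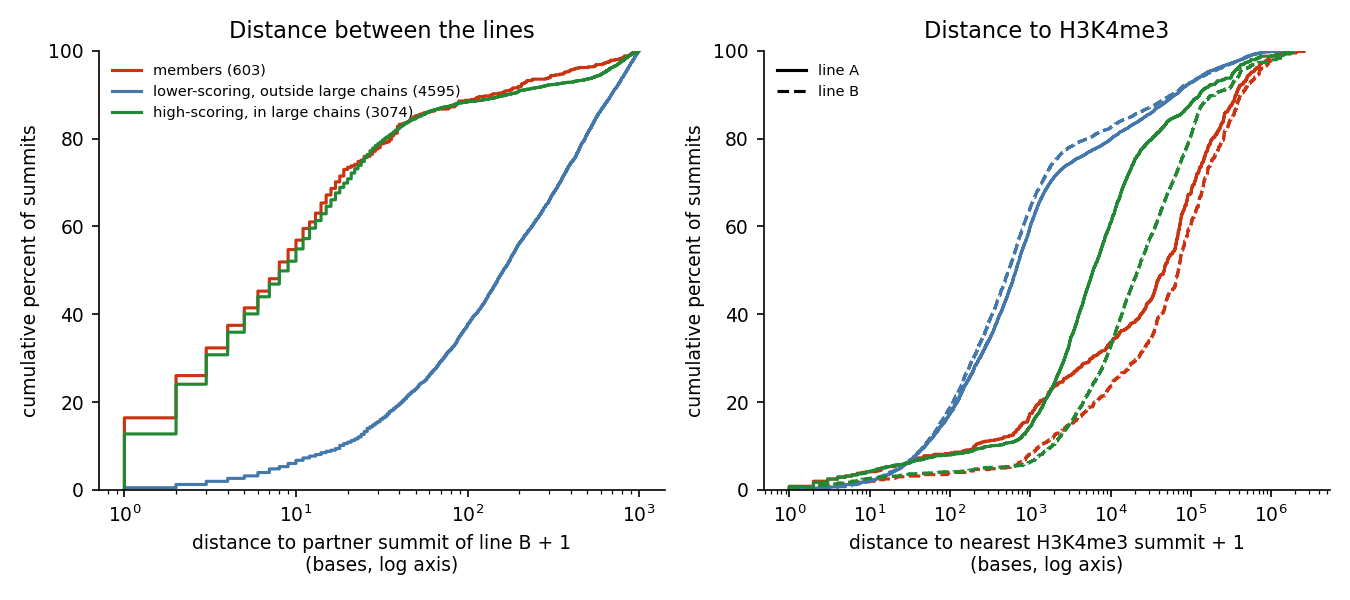
Cumulative percent of summits (vertical axis) against the distance to the partner summit of line B (left) and to the nearest H3K4me3 summit of each line (right), in bases plus 1 on log axes, for the members (red), lower-scoring shared summits outside large chains (blue) and high-scoring shared summits in large chains (green). Solid lines in the right panel are line A and dashed lines are line B; the members lie a median of 7 bases from the partner and 46.7 kb and 69.5 kb from H3K4me3.

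H3K4me3 was not used by the rule, and few members carried it. In line A 105 of 603 members had an H3K4me3 summit within 1 kb (17.4%, Wilson interval 14.6% to 20.6%), against 31.1% of all autosomal H3K27me3 summits of that line. In line B 49 members had one within 1 kb of the partner (8.13%, interval 6.20% to 10.6%), against 34.0% of all autosomal H3K27me3 summits of line B. Both lines had H3K4me3 at 45 members (7.46%, interval 5.62% to 9.84%), against 28.9% of the summits of line A with a partner. Neither line had it at 494 members (81.9%).

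The shares differed most from those of weaker summits in the same kind of place. Of the 4595 lower-scoring shared summits outside large chains, 60.0% had H3K4me3 in line A (Wilson interval 58.5% to 61.4%) and 64.2% in line B (interval 62.8% to 65.6%). The mean over lines was 12.8% ± 6.57 for the members and 62.1% ± 3.00 for the lower-scoring summits (SD, n = 2). Both sets come from the same lines, so the difference was taken within each line. It was -42.5 percentage points in line A and -56.1 in line B, a mean of -49.3 ± 9.57 (SD, n = 2). An exact permutation test paired by line gave p = 0.5 (two-sided), which is the smallest that 2 lines allow. Among the high-scoring summits of large chains 14.5% and 6.34% had H3K4me3 in lines A and B, a mean of 10.4% ± 5.77 (SD, n = 2). The members were higher by 2.90 and 1.78 percentage points in lines A and B, a mean of 2.34 ± 0.79 (SD, n = 2; exact paired permutation p = 0.5, two-sided, again the smallest possible). This difference had the same direction in both lines, but in each line the Wilson interval of the large chains (13.3% to 15.8% and 5.54% to 7.26%) overlapped that of the members.

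The contrast with the lower-scoring summits also held for the distance to H3K4me3. The nearest H3K4me3 summit lay a median of 46.7 kb from a member in line A, with quartiles of 2.60 and 144 kb. In line B the median was 69.5 kb, with quartiles of 11.3 and 183 kb. The lower-scoring shared summits outside large chains lay a median of 0.665 kb and 0.537 kb from H3K4me3 in lines A and B, and the high-scoring summits of large chains 6.07 kb and 22.0 kb. The median member therefore lay farther from H3K4me3 than the median summit of either set, in both lines.

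With rising score H3K4me3 first became more and then less frequent. Shared summits outside large chains were ranked by the lower of their scores in the lines. Below a score of 5, 48.4% and 54.3% of 1404 summits had H3K4me3 in lines A and B, and from 5 to 10 the shares were 63.4% and 67.7% of 1566. From a score of 10 to 20, 74.5% and 76.8% of 1099 summits had H3K4me3 in lines A and B. From 20 to 30 the shares were 60.9% and 64.9% of 368, and from 30 to 50 they were 25.3% and 27.8% of 158. Among the members, the 84 with a lower score of 50 to 75 had 10.7% (interval 5.74% to 19.1%) and 8.33% (interval 4.10% to 16.2%). Most of the fall thus lay below the threshold of 50, between scores of 20 and 50.

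The distance between lines shifted over the same range of scores. The share of summits within 30 bases of the partner was 18.6% at scores of 10 to 20, 23.4% at 20 to 30, 54.4% at 30 to 50, 71.4% at 50 to 75 and 83.8% at 500 or more. The 158 summits scoring 30 to 50 were intermediate in both measures, so the members continue a series that begins below their threshold.

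**Figure D3:**
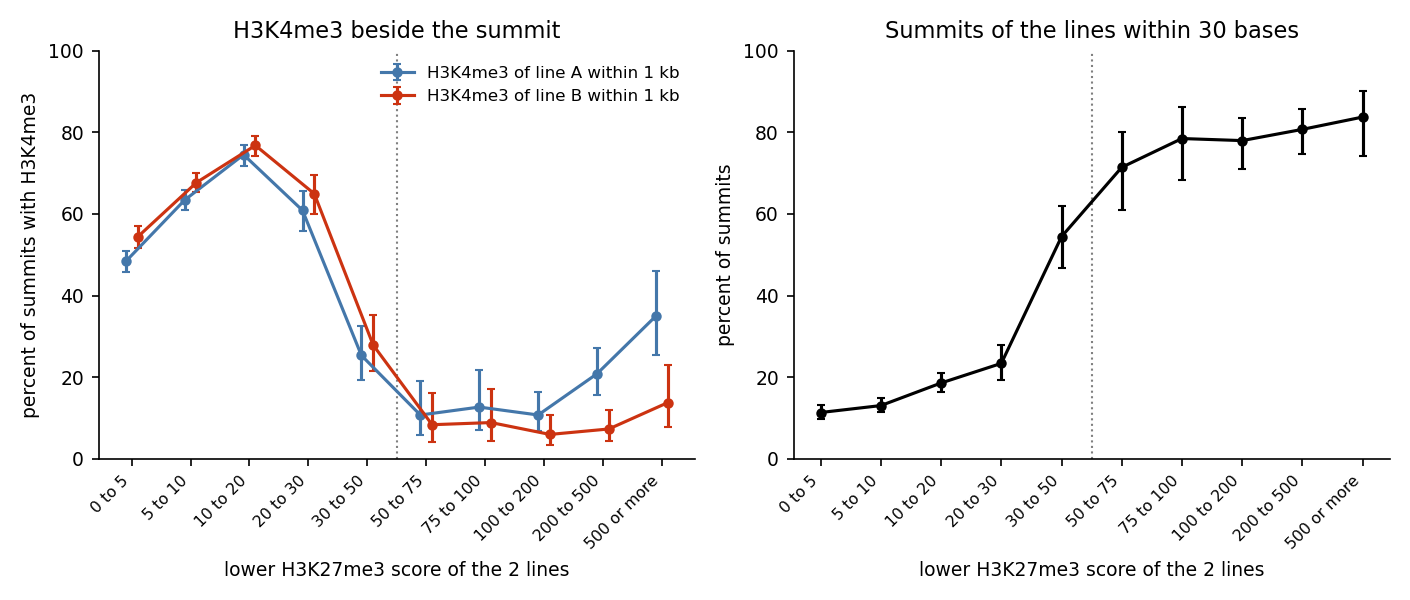
Shared H3K27me3 summits outside large chains, binned by the lower score of the lines (horizontal axis; the dotted line marks 50, above which all are members), with the percent that have H3K4me3 within 1 kb in each line (left) and the percent with a partner within 30 bases (right). Bars are 95% Wilson intervals for counting error; H3K4me3 rises from 48.4% and 54.3% below 5 to 74.5% and 76.8% at scores of 10 to 20 and falls to 10.7% and 8.33% at 50 to 75, while close partners rise from 18.6% to 71.4%.

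Within the members, H3K4me3 of line A became more frequent again with the score. It was present at 10.7% of the 168 members scoring 100 to 200, at 20.8% of the 192 scoring 200 to 500 (interval 15.7% to 27.1%) and at 35.0% of the 80 scoring 500 or more (interval 25.5% to 45.9%). In line B these shares were 5.95%, 7.29% and 13.8%, and the last interval, 7.85% to 23.0%, overlapped that of the members scoring 200 to 500, 4.39% to 11.9%. Part of the rise in line A was in H3K4me3 summits close to the H3K27me3 summit. In line A one within 50 bases was found at 12 of the 331 members scoring 50 to 200 (3.63%). At scores of 200 to 500 and 500 or more, one was found at 18 of 192 (9.38%) and 17 of 80 (21.2%). In line B the counts were 8, 6 and 7 (2.42%, 3.13% and 8.75%), and the interval of the last, 4.30% to 17.0%, overlapped those of the others, 1.23% to 4.70% and 1.44% to 6.65%.

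The H3K4me3 summits of line A alone were weak. At 60 members line A had H3K4me3 and line B did not, while the reverse was seen at 4. The H3K4me3 scores at the 60 ran from 2.13 to 33.8 with a median of 7.55, below the median of 38.6 over all autosomal H3K4me3 summits of that library. At 31 of the 60 the H3K4me3 summit lay within 50 bases of the H3K27me3 summit. The member on chromosome 6 at 56204692 is an example, with H3K27me3 scores of 1928 and 1674 and an H3K4me3 summit of line A 4 bases away that scored 9.08, while the nearest of line B was 1062645 bases away.

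Where both lines had H3K4me3, the 45 members fell into strong and weak sites. At 30 of them the weaker H3K4me3 score was under 100, with medians of 14.1 and 20.0 in lines A and B. At the other 15 it was 100 or more, a limit set with the values in view. There the H3K4me3 scores ran from 191 to 2807 in line A, while those of line B ran from 551 to 8221. These 15 members lie beside 11 distinct H3K4me3 summits of line A, all among the 55 highest of the 19966 autosomal H3K4me3 summits of that line and, in line B, among the 56 highest of 20961.

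The strongest was on chromosome 2 at 83185929. Its H3K4me3 summit scored 2807 and 8221 in lines A and B, the third and the fourth highest of the autosomal lists, and lay 6 and 12 bases from the H3K27me3 summits. Its H3K27me3 score was 5792 in line A, the highest of all members, and its partner scored 462. The summits of both marks and both lines thus stood within a few bases of each other, with high scores in all 4 libraries.

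The other members among the 10 with the strongest H3K4me3 lay at 6 places, with 11 members in all because of a tie on chromosome 17. On chromosome 10 at 87893102 the H3K27me3 scores of lines A and B were 2197 and 142, and those of H3K4me3 1581 and 4689. On chromosome 13 the members at 1250773 and 1251712 share a partner that scored 272 and had H3K27me3 scores of 4729 and 75.1 in line A, beside an H3K4me3 summit scoring 1473 and 5970. On chromosome 3 the members at 91884908 and 91884071 scored 2461 and 773 in line A but 81.8 and 53.6 in line B, with H3K4me3 at 1289 and 4806. In each of these 3 places line A had the higher H3K27me3 score at the summit nearest to H3K4me3, and line B the higher H3K4me3 score.

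On chromosome 8 the members at 46914369 and 46913623 scored 3449 and 167 in line A and share a partner that scored 85.2, with H3K4me3 at 1273 and 3566. On chromosome 2 at 83082785 the H3K27me3 scores were 1595 and 139 and those of H3K4me3 1169 and 3193. On chromosome 17 at 4442422 they were 2097 and 309, with H3K4me3 at 837 and 4831, and a neighbour at 4441461 with the same partner scored 133 in line A. The next member by H3K4me3 score, named after its values were seen, was on chromosome 28 at 1894385 and went the other way, with H3K27me3 scores of 1226 and 1529 and H3K4me3 scores of 931 and 824.

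Over the 15 members beside strong H3K4me3, the H3K27me3 score of line B was a median of 0.088 times that of line A, against 0.97 over all members, and was lower at 12 of 15. The H3K4me3 score of line B was a median of 3.19 times that of line A and was higher at 14 of 15. The 15 members lie beside 11 distinct H3K4me3 summits of line A, and some share a partner. The same values thus enter more than once, and the counts are not of independent sites. At the 30 members with weaker H3K4me3 in both lines the median ratios were 1.01 for H3K27me3 and 1.22 for H3K4me3. The 42 high-scoring summits of large chains beside H3K4me3 of at least 100 in both lines gave medians of 0.095 and 3.61, and 20 such lower-scoring summits outside large chains 0.68 and 1.53. So the opposite ratios of the marks were also found in large chains. They compare 1 library with 1 library, and the depth and scaling of each cannot be told apart from a difference between lines.

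**Figure D4:**
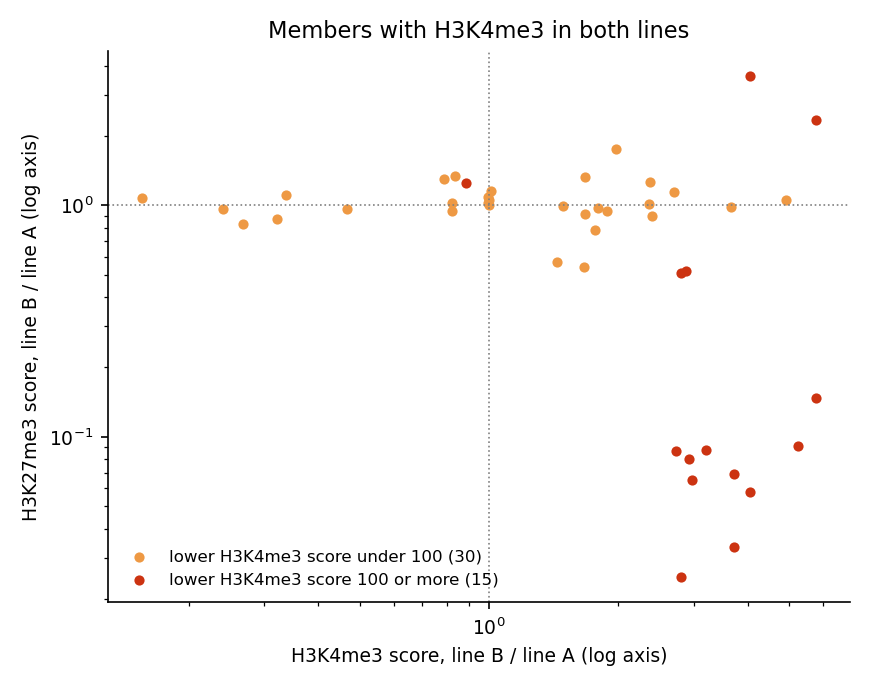
The 45 members with H3K4me3 in both lines, with the ratio of line B to line A of the H3K4me3 score (horizontal) and of the H3K27me3 score (vertical), both on log axes; dotted lines mark equal scores. The 30 members with a lower H3K4me3 score under 100 (orange) spread around an H3K27me3 ratio of 1, and most of the 15 with 100 or more (red) lie at the lower right, with medians of 3.19 and 0.088.

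Some of the strongest H3K4me3 summits lay beside a member. Of the 50 highest autosomal H3K4me3 summits of line A, a number chosen after the values were seen, 10 lay within 1 kb of a member, and all 50 had an H3K27me3 summit scoring 50 or more within 1 kb, which for 38 was in a large chain. In line B, 10 of the 50 highest lay beside the partner of a member. There 40 lay beside an H3K27me3 summit scoring 50 or more, which for 30 was in a large chain. All 50 lay beside one of any score. Of all 19966 autosomal H3K4me3 summits of line A, a far smaller share lay beside members. The nearest within 1 kb were 38 distinct summits at members with H3K4me3 in both lines and 52 where line A alone had it. For the other counts the share over all H3K4me3 summits was not computed, so whether they are high is not known.

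The widest differences in H3K27me3 score between the lines were next set out. The 5 members with the lowest ratio of line B to line A were on chromosome 8 at 46914369 (0.025), chromosome 3 at 91884908 (0.033), chromosome 13 at 1250773 (0.058), chromosome 10 at 87893102 (0.065) and chromosome 29 at 23770354 (0.069). The first 4 of these lie beside strong H3K4me3, and the last lies 1071 bases from an H3K4me3 summit of line A. The 5 with the highest ratio were on chromosome 22 at 15347396 (7.33), chromosome 13 at 1251712 (3.63) and 2738037 (3.49), chromosome 20 at 2989938 (3.48) and chromosome 7 at 34813030 (3.31). Of these, 4 had a partner 239 to 940 bases away, and the one on chromosome 22 had its partner 47 bases away. The members on chromosome 13 at 1251712 and 2738037 and on chromosome 7 at 34813030 each share their partner with another member. In line A that other member scored higher, at 4729, 1353 and 611 in this order. These ratios thus set a weaker summit of line A against a partner that a stronger one also has. None of the 5 but the member on chromosome 13 at 1251712 had H3K4me3 in both lines.

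The members lay in 416 chains, which hold 737 summits of line A, 134 of them not members. A chain of 1 summit in each line held 202 members (33.5%). Chains with 2, 3 and 4 summits of line A held 211, 103 and 83 members. The number of summits was equal in the lines in 361 of the 416 chains (86.8%). Within chains the gap to the next summit of line A had a median of 1161 bases, with quartiles of 887 and 1504 and a smallest gap of 399 bases. The 187 chains with 2 or more summits in each line spanned a median of 1.76 kb, and the longest 11.0 kb.

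Members standing alone scored a median of 226 and 233 in lines A and B, against 203 and 182 for those in chains with more summits. H3K4me3 was present at 17.8% and 7.43% of those alone in lines A and B (intervals 13.2% to 23.7% and 4.55% to 11.9%), against 17.2% and 8.48% of the others (intervals 13.8% to 21.2% and 6.13% to 11.6%), so the intervals overlapped in both lines. The partner lay within 30 bases at 79.7% and 78.3%.

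The members were spread over all 29 autosomes, from 8 on chromosome 25 to 52 on chromosome 8. Overall there were 0.240 members per Mb. Per Mb, chromosomes 27 and 14 were richest, with 25 and 42 members or 0.554 and 0.496 per Mb. Chromosomes 11 and 15 were poorest, with 9 and 12 members or 0.084 and 0.141 per Mb, and the median autosome had 0.222. As a share of all H3K27me3 summits of line A on the chromosome, chromosome 9 was highest at 7.05%, with 34 of 482. Chromosome 25 was lowest at 1.14%, with 8 of 700. By this share chromosome 27 held 3.28%, below the 3.41% over all autosomes, while chromosome 14 held 6.52%.

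**Figure D5:**
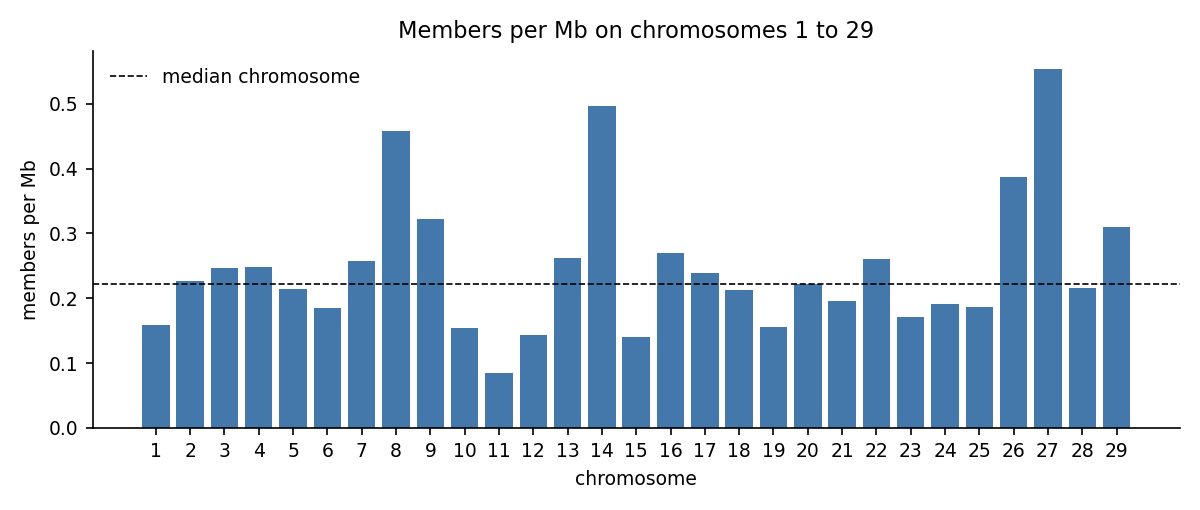
Members per Mb (vertical axis, from 0) on each of chromosomes 1 to 29 (horizontal axis), with the median chromosome dashed at 0.222. Chromosomes 27 and 14 stand highest at 0.554 and 0.496, and chromosome 11 lowest at 0.084.

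More than 1 member often lay in the same region. In the same chain as another member lay 329 of 603 (54.6%), and 420 (69.7%) shared a 1 Mb window with another. These shares were not computed for all 17664 summits of line A, so they do not show that members gather more than other summits. Of 2529 such windows, 335 (13.2%) held a member, and 183 of these held 1. The fullest was the first megabase of chromosome 14, with 17 members in 12 chains from 57550 to 984006. Their scores ran from 66.5 to 3621 and from 70.9 to 2638 in lines A and B, each partner lay within 86 bases and none had H3K4me3 within 1 kb in either line. That window held 255 H3K27me3 summits of line A in all, but only 4 and 2 H3K4me3 summits in lines A and B.

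The next window was on chromosome 27, with 9 members in 4 chains from 6210501 to 6862102, of which 2 had H3K4me3 in both lines. It held 22 H3K27me3 summits of line A in all. Windows on chromosome 6 (23347660 to 23839456) and chromosome 8 (25409730 to 25915091) held 6 members each, in 3 chains. On chromosome 6, 4 of them had H3K4me3 in line A and 1 in line B, while on chromosome 8 none had it. After these, 3 windows tied with 5 members each. The window on chromosome 4 (120358675 to 120827788) held them in 4 chains, and none had H3K4me3. Neither did any on chromosome 16 (13371971 to 13804803), in 3 chains. On chromosome 20 (2062729 to 2991577), also in 3 chains, 2 had H3K4me3 in line A and 1 in line B. What genes lie at any of these positions was not analysed here.

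The position of the members was also measured against the large chains and the ends of chromosomes. Their nearest large chain lay a median of 1240 kb away, with quartiles of 284 and 3636 kb, and 74 members (12.3%, Wilson interval 9.89% to 15.1%) lay within 100 kb of one. Among lower-scoring shared summits outside large chains the median was 892 kb and the share within 100 kb 15.9% (interval 14.9% to 17.0%). Within 1 Mb of the first base or the last summit of a chromosome lay 8.46% of the members (interval 6.49% to 11.0%) and 7.90% of the lower-scoring summits (interval 7.15% to 8.72%).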

How the data were processed

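Per the submitters' processing notes, BWA was the aligner, UMD3.1 the genome and MACS2 the peak caller, with no versions named. Use of the inputs as control and any filters are not given in the sources used here. Each peak's score, as the authors deposited it, was read as −log10 of a p or q value from its smallest values, just above 2. The deposited positions are 1-base summits. No sequence was printed, because no genome of that build was used.

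Lists were pooled, chained and filtered as the opening of the report says. H3K4me3 was counted within 1 kb of the member in line A and of its partner in line B. Shares carry 95% Wilson intervals. Sets of summits were compared by an exact permutation test paired by line (n = 2), since each set is measured in the same libraries; this test was chosen with the values known. Named sites were the 10 highest by the lower H3K27me3 score, the 10 highest by the lower H3K4me3 score, the 5 extreme score ratios each way, the 5 fullest 1 Mb windows, the 2 richest and 2 poorest chromosomes, and the summits at the thresholds. Members and lists were chosen with earlier results of these data known. On simulated lists built to meet or miss the rule, the selection recovered 500 of 500 planted members with 0 false ones. This checks the code only, since the planted members met the rule by construction and stood alone, without shared partners. The scripts ran on Python 3.11.15 with scipy 1.17.1, numpy 2.4.6, matplotlib 3.10.9 and pandas 2.3.3.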

Additional observations from a re-analysis of the deposited data

Results flagged for a closer look

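The chromosomes left out by the rule held further summits that met its other criteria, judged without a control list. On the X, 35 of 5391 H3K27me3 summits of line A did (0.649%), with median scores of 229 and 232 in the lines and a median distance of 7 bases between lines. H3K4me3 of lines A and B lay within 1 kb of 6 and 2 of the 35. On sequences not placed on a chromosome, 492 of 2170 did (22.7%), on 437 sequences, with median scores of 131 and 115. Their summits also lay a median of 7 bases apart, and H3K4me3 lay beside 47 of them (9.55%) in line A, against 10 (2.03%) in line B. The share with H3K4me3 over all H3K27me3 summits of the X or of unplaced sequences was not computed. Whether these H3K4me3 counts are low for those sequences is thus not known.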

How the results depend on the processing

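The lower share of H3K4me3 at the members than at lower-scoring shared summits outside large chains was seen in both lines under all 9 other definitions of the members (thresholds of 30 and 100, chain gaps of 2 and 10 kb, chains of 3 or 10 dropped, partners within 250 bases or 5 kb, line B as anchor), at 16.2% to 19.5% against 51.4% to 66.6% in line A and 7.23% to 12.2% against 56.3% to 70.4% in line B. Members numbered 1070 with a gap of 2 kb and 919 with only chains of 10 or more dropped, against 603. Under both settings fewer summits lay in dropped chains. With a score of 30 the share within 30 bases of the partner was 73.7%, and H3K4me3 was at 12.2% for line B and 10.6% for both lines. With H3K4me3 within 250 bases, 500 bases and 5 kb the shares were 10.8%, 12.1% and 29.02% in line A, 4.64%, 5.14% and 18.1% for line B, and 3.81%, 4.15% and 16.6% in both lines. With only H3K4me3 summits above the median of their list, 2.82% had it in both lines. With 1 line left out the share was 8.13% to 17.4%, as either line then counted alone. Partners within 10 and 100 bases made up 59.5% and 88.7%. The differences in H3K4me3 share are paired by line. Without this replicate block, chosen after seeing the data, the means stay at -49.3 and 2.34 percentage points, and the exact permutation p is 0.333 (the smallest possible) and 0.667. Depth is unknown, so a weak summit missing from 1 list cannot be told apart from one not detected.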
